A study of Mus musculus with 16 samples.

Results

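The chemokine system was followed here as 58 genes, 39 ligands and 19 receptors, out of 22609 gene entries counted in each library. Members were all genes whose symbol starts with Ccl, Cxcl, Ccr, Cxcr, Xcl, Xcr or Cx3cl before a digit. Genes of the Ccrl and Ccrn type and Cx3cr1 were not taken as members. RNA had been sequenced from tracer-positive cells sorted out of dissociated lumbar dorsal root ganglia, the clusters of sensory neuron cell bodies beside the spinal cord, of male mice aged 8 to 16 weeks. All animals carried floxed alleles of Ltbr, the lymphotoxin-beta receptor gene, and all received a fluorescent wheat germ agglutinin tracer in the paw on day 16 after the last injection, with ganglia taken on day 18. The 4 groups of 4 libraries were PTX CKO, PTX fl/fl, vehicle CKO and vehicle fl/fl. PTX is paclitaxel, a microtubule-stabilising chemotherapy drug given here by intraperitoneal injection 3 times at 6 mg per kg, 2 days apart, and vehicle libraries are those with water as their treatment label. CKO animals also carried Cre under control of Nav1.8, the sodium channel of nociceptors, so that deletion is limited to cells that use that promoter, and the fl/fl label names no Cre. The protocol text attached to every library describes PTX, vehicle libraries included, and the design text gives 3 rather than 4 per group. Separate animals per library are not named in the labels, so each p-value reflects library-to-library spread that could be technical.

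Chemokines are small secreted proteins that direct the migration of leukocytes through G protein-coupled receptors. Inflammatory ligands are induced by NF-kB or interferon signalling and draw neutrophils, monocytes or lymphocytes into tissue, while homeostatic ligands such as CXCL12 are made constantly by stromal cells. In sensory ganglia, ligands including CCL2 and CX3CL1 have been studied as signals between injured neurons, glia and macrophages. The lymphotoxin-beta receptor is known for driving CCL19, CCL21 and CXCL13 in lymphoid organs through the alternative NF-kB pathway.

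Each library held about 7906500 to 11668000 gene counts. Between 12136 and 15418 genes were detected per library, and 27 to 39 of these were members. Values are given as CPM, counts scaled to a common library size, and 1 count was worth 0.0824 to 0.128 CPM. Library titles carry dates, an earlier and a later one for PTX and another pair for vehicle, each with 2 libraries of each genotype. The labels do not say what the dates mark, and treatment and title date cannot be told apart. The targeted gene was not lower under the CKO label: Ltbr stood at 23.3, 5.88, 19.5 and 28.4 CPM in PTX CKO and 6.06, 8.61, 12.2 and 15.6 CPM in PTX fl/fl, against 99.0, 54.3, 33.1 and 32.3 CPM in vehicle CKO and 42.4, 51.4, 48.3 and 46.8 CPM in vehicle fl/fl. CKO and fl/fl are therefore names of labels below. Sensory neuron markers were present in all libraries, at 0.815 to 2.20% of counts under PTX and 0.0884 to 0.740% under vehicle. Neutrophil markers, foreign to a sort of neurons, took 0.0322 to 12.2% of counts under PTX and 7.72 to 19.4% under vehicle.

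Upstream sequences are shown for the 3 neutrophil-attracting ligands Cxcl1, Cxcl2 and Cxcl3, for the interferon-induced Cxcl10 and for Cxcl12, the ligand with the smallest adjusted p between PTX and vehicle over both genotype labels. RefSeq windows of 250 bases before to 50 bases after the start were at hand for 43 of the 58 members, 50 windows in all, on build GRCm38.p6, while the counts were made on mm9. A kB-type motif, GGGA and TTCC set apart by any 2 bases, on either strand, stood in 6 of the 50 member windows (12%) and in 482 of 32851 windows of all genes (1.47%). The 6 genes were Ccl1, Ccr3, Cxcl1, Cxcl2, Cxcl3 and Cxcl10. Cxcl1, Cxcl2 and Cxcl3 lie near each other on chromosome 5 and have the same letters in the match, so their windows are not independent cases. An interferon-response type motif, a pair of GAAA set apart by any 2 bases, stood in 3 member windows (6%, against 3.44% of all), and TATAAA in 14 (28%, against 13.6%). These are matches of letters, not measured binding sites. The 250 bases before each start follow, 5′ to 3′ on the gene's strand, with capitals marking kB-type matches and, in Cxcl10, first the interferon-response type match. In Cxcl1, Cxcl2 and Cxcl3 the matches on both strands overlap and form 1 capital run, and the Cxcl12 stretch holds none.
Cxcl1 (chr5:90890995-90891244, plus strand): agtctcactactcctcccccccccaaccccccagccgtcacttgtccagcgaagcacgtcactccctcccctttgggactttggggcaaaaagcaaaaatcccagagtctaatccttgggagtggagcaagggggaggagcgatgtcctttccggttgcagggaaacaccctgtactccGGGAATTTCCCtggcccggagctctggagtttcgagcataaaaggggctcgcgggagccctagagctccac
Cxcl2 (chr5:90903649-90903898, plus strand): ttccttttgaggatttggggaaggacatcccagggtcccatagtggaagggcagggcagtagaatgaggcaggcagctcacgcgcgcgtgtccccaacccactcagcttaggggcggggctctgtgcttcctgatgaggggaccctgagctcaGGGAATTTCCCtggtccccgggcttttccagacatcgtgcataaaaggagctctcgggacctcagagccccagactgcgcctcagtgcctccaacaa
Cxcl3 (chr5:90785851-90786100, plus strand): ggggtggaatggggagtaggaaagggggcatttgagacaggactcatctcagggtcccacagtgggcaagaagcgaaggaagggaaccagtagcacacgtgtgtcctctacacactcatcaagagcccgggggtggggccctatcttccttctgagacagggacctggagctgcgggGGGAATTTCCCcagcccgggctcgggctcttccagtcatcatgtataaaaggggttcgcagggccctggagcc
Cxcl10 (chr5:92348890-92349139, minus strand): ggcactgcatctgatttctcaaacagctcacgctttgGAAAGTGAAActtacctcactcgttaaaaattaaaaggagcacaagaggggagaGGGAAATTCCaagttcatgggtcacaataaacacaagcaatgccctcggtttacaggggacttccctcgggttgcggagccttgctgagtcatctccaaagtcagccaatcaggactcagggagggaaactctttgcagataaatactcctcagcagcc
Cxcl12 (chr6:117168285-117168534, plus strand): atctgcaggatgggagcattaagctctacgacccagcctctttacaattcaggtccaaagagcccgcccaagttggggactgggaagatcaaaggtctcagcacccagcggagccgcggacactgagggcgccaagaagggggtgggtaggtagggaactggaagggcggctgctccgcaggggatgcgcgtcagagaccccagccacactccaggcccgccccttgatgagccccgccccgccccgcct

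Of the 58 members, 16 had counts in all 16 libraries, 30 in some and 12 in none. The 12 at 0 included the lymphoid-organising ligands Cxcl13, Ccl19, Ccl21a, Ccl21b and Ccl21c, which the lymphotoxin-beta receptor is known to drive, and the receptors Ccr4, Ccr6 and Ccr8. The others were Ccl26, Ccl27b, Ccl28 and Cxcl15. For each of these, 0 counts in a library allow up to 0.247 to 0.384 CPM, a limit that covers counting error only. Ccl21a, Ccl21b and Ccl21c, and likewise Ccl27a and Ccl27b, are near-identical copies whose reads may not be assigned uniquely, so a 0 there is uncertain. Per kilobase of exon, the myeloid genes led: over all libraries Ccl6 averaged 322 CPM per kb, Ccl3 237, Ccl4 181, Ccr1 115, Cxcl2 105 and Cxcr2 76.9 CPM per kb. The next was Ccl12 with 43.3 CPM per kb, and Cxcl12 stood at 4.33 CPM per kb. That order did not hold in the 4 PTX libraries of the earlier title date, where Ccl6 averaged 14.4 CPM per kb, Ccl2 12.7, Cxcl10 11.9, Ccl3 10.7 and Ccl4 10.6 CPM per kb. After edgeR's filter on low counts, 37 members (25 ligands and 12 receptors) were tested and 21 were not. The filter uses group size, so a member high in only 1 group could pass it.

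**Figure D1:**
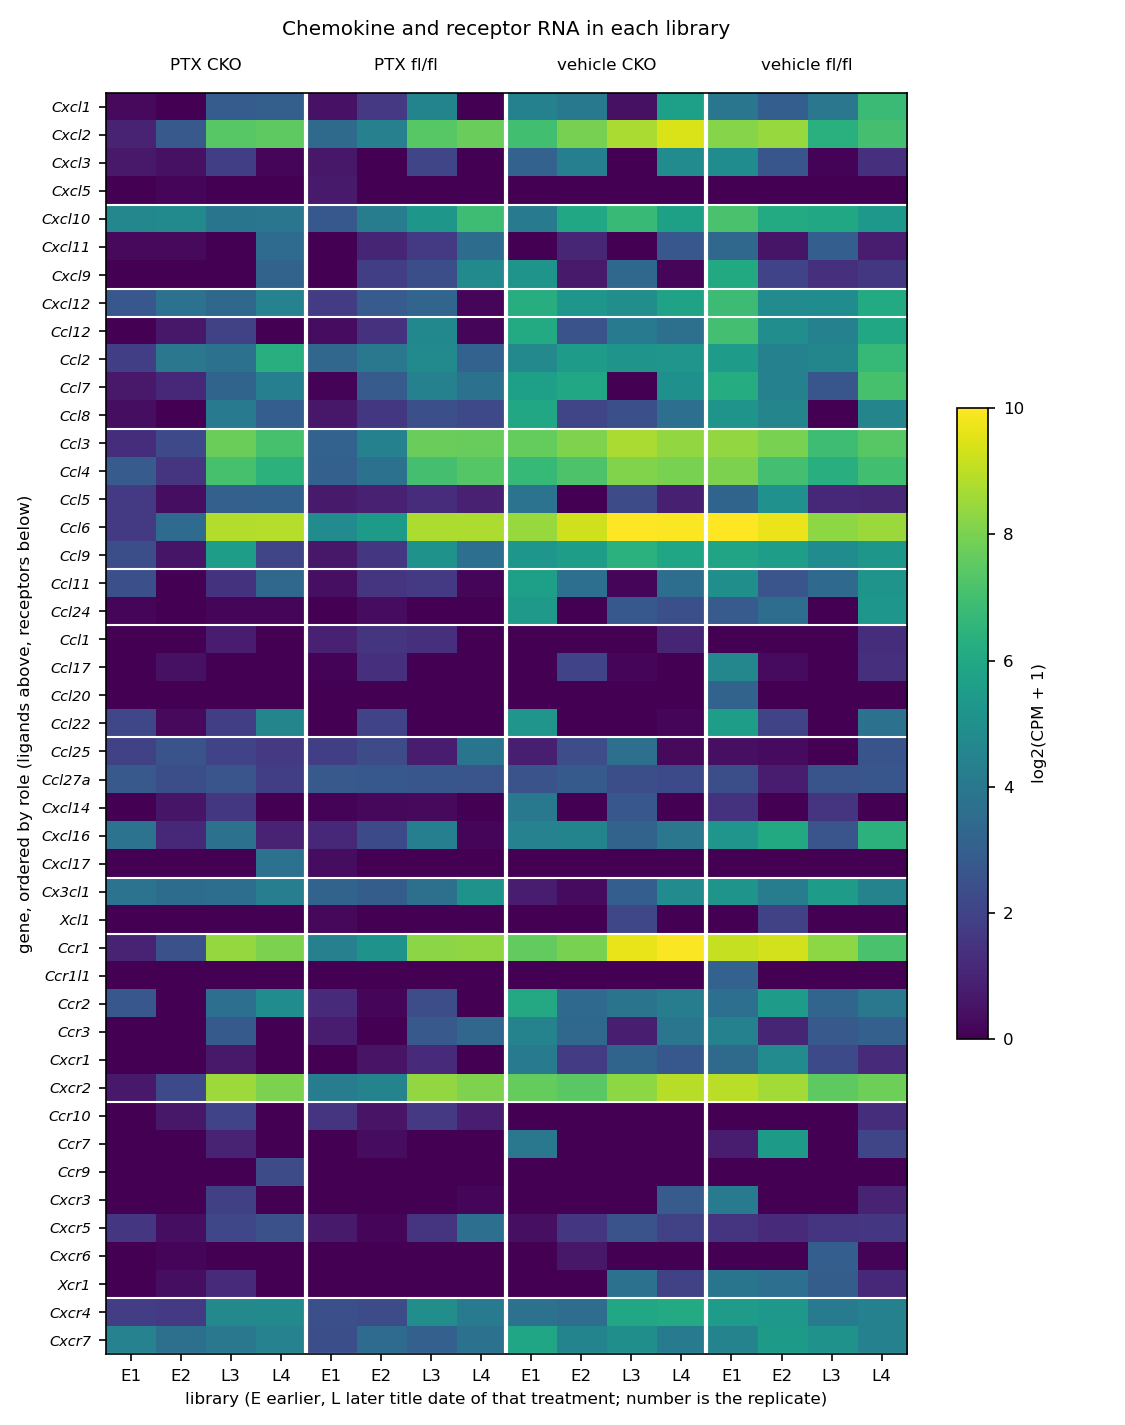
Each row is 1 of 45 members with a count and each column 1 library, coloured by log2(CPM + 1). Columns run PTX CKO, PTX fl/fl, vehicle CKO and vehicle fl/fl, with E and L for the earlier and later title date of that treatment. The 4 PTX libraries of the earlier date are dark for Ccl3, Ccl4, Ccl6, Cxcl2, Ccr1 and Cxcr2, while Ccl27a has a similar shade in all but 1 column.

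The comparison of PTX with vehicle over both genotype labels asked which chemokine genes differed between these libraries, whose title dates differ too. Of the 37 tested members 0 were called higher and 7 lower. These included the stromal ligand Cxcl12 and its receptor Cxcr7, the monocyte attractant Ccl12 and the eosinophil attractants Ccl11 and Ccl24. The others were the neutrophil receptor Cxcr1 and the dendritic cell receptor Xcr1. By edgeR's quasi-likelihood test with Benjamini-Hochberg adjustment over 14200 genes, these 7 of 37 tested members stand beside 16.7% of all genes called in either direction and 6.19% called lower. The log2 fold change was below 0 for 32 of 37 members and for 49.6% of all genes, with a median of -1.94 for the members and 0.01 for all genes. Without the 4 PTX libraries of the earlier title date edgeR called 0 members, Cxcl12 included (-2.76, adjusted p = 0.114), and without the 4 of the later date it called 23. Calls over all genes moved the same way, to 224 without the earlier and 4244 without the later PTX date, against 2378 with all libraries. Without the earlier or the later vehicle date edgeR called 2 or 4 members, beside 895 or 1940 of all genes. Without PTX CKO 2 it called 4 members, beside 1613 of all genes. In RNA from many cells, fewer cells of a type and less RNA per cell cannot be told apart.

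Cxcl12, which retains leukocytes and progenitors in stromal niches, had 5.61, 12.4, 9.08 and 20.4 CPM in PTX CKO and 2.41, 6.42, 8.68 and 0.102 CPM in PTX fl/fl, against 73.3, 36.9, 29.7 and 53.6 CPM in vehicle CKO and 114, 27.4, 27.8 and 68.6 CPM in vehicle fl/fl. All 8 PTX libraries lay below all 8 vehicle libraries. The log2 fold change was -2.89 ± 0.59 (SE; edgeR adjusted p = 0.0038). Within genotype labels it was -3.75 ± 0.87 in fl/fl, where it was the 1 member called (edgeR adjusted p = 0.0215), and -2.02 ± 0.81 in CKO, where it did not pass (edgeR adjusted p = 0.177). Of all genes, 4.96% were called in fl/fl and 2.58% in CKO. Leaving out PTX fl/fl 1, PTX fl/fl 2 or vehicle fl/fl 1 ended the fl/fl call (edgeR adjusted p = 0.0885, 0.0588 and 0.0747), and so did replicate number as a block (0.0763). It was also lost with only the 2 groups fitted (-3.85, edgeR adjusted p = 0.0698), a fit in which Xcr1 was the 1 member called (edgeR adjusted p = 0.045). Unlike the myeloid genes below, Cxcl12 did not pass between the 2 PTX dates, with means of 6.72 CPM on the earlier and 9.57 CPM on the later date.

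Cxcr7, the scavenging receptor that removes CXCL12, had 20.7, 11.9, 15.3 and 20.6 CPM in PTX CKO and 4.24, 10.4, 7.46 and 12.3 CPM in PTX fl/fl, against 57.6, 21.8, 30.7 and 17.0 CPM in vehicle CKO and 21.1, 42.6, 33.4 and 19.8 CPM in vehicle fl/fl. The fl/fl groups did not overlap and the CKO groups did. Its log2 fold change of -1.33 ± 0.38 passed over both labels (edgeR adjusted p = 0.0261), while -1.77 ± 0.55 in fl/fl and -0.89 ± 0.54 in CKO did not (edgeR adjusted p = 0.0777 and 0.381). The joint call was lost with a replicate block (0.0561) and without PTX CKO 2, PTX fl/fl 1, vehicle CKO 1 or vehicle fl/fl 2 (edgeR adjusted p = 0.0596, 0.0605, 0.0582 and 0.0623). Cxcr4, the signalling receptor for CXCL12, had 2.56, 2.28, 24.9 and 25.7 CPM in PTX CKO and 4.48, 3.87, 29.6 and 15.7 CPM in PTX fl/fl, against 12.5, 11.1, 61.5 and 69.0 CPM in vehicle CKO and 43.9, 39.6, 16.3 and 20.1 CPM in vehicle fl/fl. Its log2 fold change over both labels was -1.32 ± 0.64 and did not pass (edgeR adjusted p = 0.168). The low PTX values of Cxcr4 all came from the earlier date.

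Fibroblasts and endothelial cells are known sources of CXCL12, and their markers were measured beside it. Fibroblast markers took 0.0303 to 0.140% of counts under PTX and 0.140 to 0.452% under vehicle, and 7 of 10 tested were called lower under PTX. Of 12 fibroblast markers, Dpt and Clec3b were at 0 in every vehicle library. Endothelial markers took 0.0053 to 0.0144% of counts under PTX and 0.00484 to 0.0280% under vehicle, and 2 of 12 were called lower. Schwann cell markers took 0.173 to 0.310% under PTX and 0.507 to 0.927% under vehicle, with 10 of 11 lower, and 9 of 13 satellite glial and 1 of 8 lymphocyte markers were lower. Their part in the Cxcl12 and Cxcr7 differences was not tested.

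**Figure D2:**
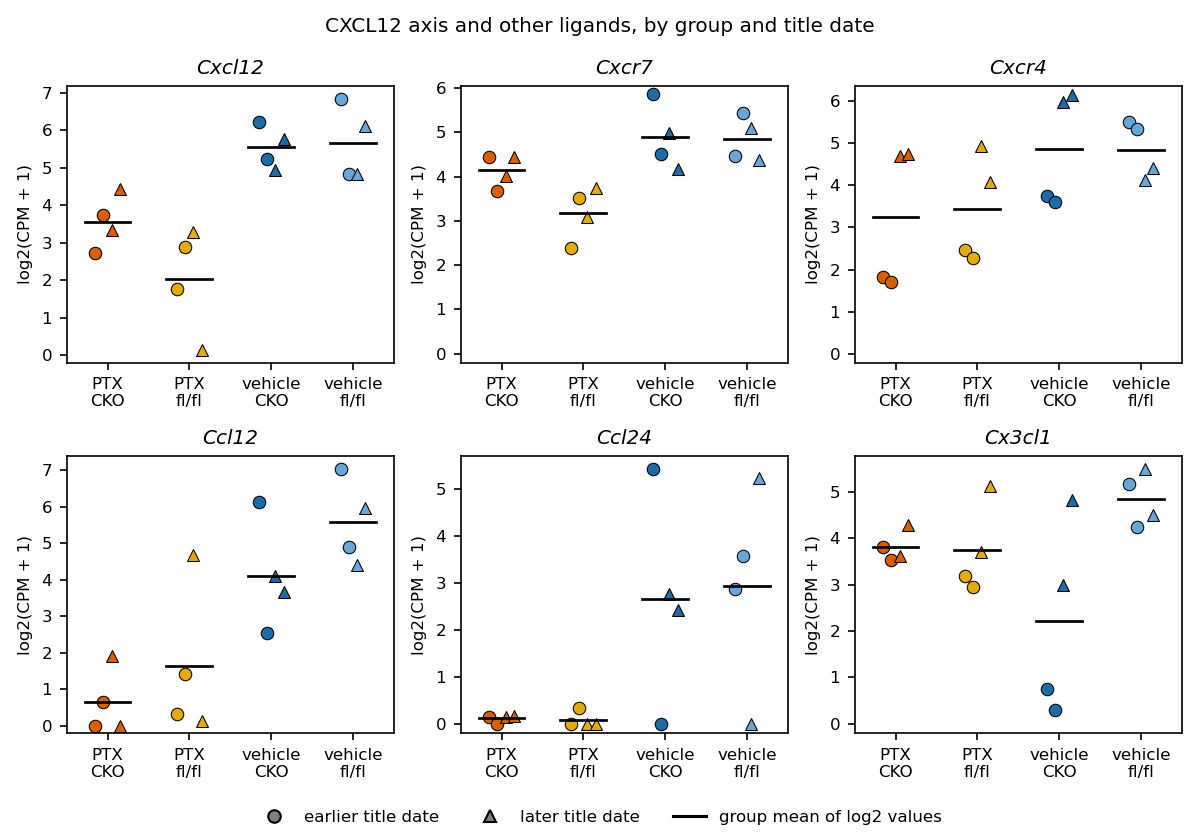
Points are libraries on a log2(CPM + 1) axis in 4 groups, with circles for the earlier and triangles for the later title date and a bar at the mean of the log2 values. Cxcl12 separates the 8 PTX from the 8 vehicle libraries on both dates, Cxcr4 is lowest in the PTX circles, and Cx3cl1 is lowest in the 2 circles of vehicle CKO.

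Among the monocyte attractants, Ccl12 was called lower and Ccl2, Ccl7 and Ccl8 were not. Ccl12, a mouse ligand of CCR2, had 0, 0.569, 2.78 and 0 CPM in PTX CKO and 0.249, 1.67, 24.6 and 0.102 CPM in PTX fl/fl, against 68.9, 4.87, 16.2 and 11.8 CPM in vehicle CKO and 130, 29.0, 20.2 and 61.5 CPM in vehicle fl/fl. The CKO groups did not overlap, and in fl/fl PTX replicate 3 reached into the vehicle range. The log2 fold change was -4.04 ± 1.12 (edgeR adjusted p = 0.0215), and without PTX fl/fl 2 the adjusted p was 0.0503. Ccl2, a monocyte attractant, had 2.66, 14.6, 12.2 and 77.2 CPM in PTX CKO and 8.80, 15.1, 26.7 and 7.92 CPM in PTX fl/fl, against 24.9, 45.2, 35.7 and 36.0 CPM in vehicle CKO and 44.1, 19.9, 23.3 and 103 CPM in vehicle fl/fl. Groups overlapped in both labels, and the log2 fold change was -1.06 ± 0.55 (edgeR adjusted p = 0.202). Ccl7 had a log2 fold change of -2.43 ± 1.04 (edgeR adjusted p = 0.121), with group means of 7.35 ± 8.66 CPM in PTX CKO and 9.76 ± 8.56 CPM in PTX fl/fl, against 35.6 ± 26.7 CPM in vehicle CKO and 58.2 ± 58.5 CPM in vehicle fl/fl (SD, n = 4 libraries each).

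The eosinophil attractants Ccl11 and Ccl24 were low under PTX. Ccl24 was counted 3 times in PTX CKO and 3 times in PTX fl/fl, against 460 times in vehicle CKO and 595 times in vehicle fl/fl. That is 168-fold lower in CKO (95% counting interval 57.2 to 818) and 204-fold lower in fl/fl (69.5 to 992). Vehicle CKO 1 held 373 of the 460 counts and vehicle fl/fl 4 held 444 of the 595. Without those libraries, a check added after the data were seen, Ccl24 was 42.5-fold lower in CKO (14.1 to 210.1) and 72.6-fold lower in fl/fl (24.4 to 356). Ccl24 was high in some vehicle libraries only, at 41.9, 0, 5.75 and 4.38 CPM in vehicle CKO and 6.34, 10.9, 0 and 36.9 CPM in vehicle fl/fl, so that PTX and vehicle overlapped at 0. The folds pool the counts of a group and their intervals leave out the spread between libraries. With all groups fitted, edgeR did not call Ccl24 in either label alone. The difference over both labels passed (edgeR adjusted p = 0.0055). Ccl11 had 4.43, 0, 1.75 and 9.07 CPM in PTX CKO and 0.332, 1.93, 2.25 and 0.102 CPM in PTX fl/fl, against 49.6, 11.6, 0.128 and 11.4 CPM in vehicle CKO and 30.6, 5.27, 9.72 and 35.4 CPM in vehicle fl/fl. The fl/fl groups did not overlap. Its log2 fold change was -3.19 ± 1.06 (edgeR adjusted p = 0.048). Leaving out any single library other than PTX CKO 4 and vehicle CKO 3 ended it, with adjusted p-values of 0.0535 to 0.109, and so did a replicate block (0.122) or testing with no filter on low counts (0.0523). Ccr3, their receptor on eosinophils, had a log2 fold change of -2.01 ± 1.31 and did not pass (edgeR adjusted p = 0.306), with 0, 0, 6.19 and 0 CPM in PTX CKO and 0.747, 0, 5.92 and 8.84 CPM in PTX fl/fl, against 21.3, 9.19, 0.767 and 14.1 CPM in vehicle CKO and 20.3, 1.05, 5.85 and 7.32 CPM in vehicle fl/fl.

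Cxcr1 and Xcr1 were the other called receptors. Cxcr1, a chemokine receptor of neutrophils, had 0, 0, 0.619 and 0 CPM in PTX CKO and 0, 0.439, 1.33 and 0 CPM in PTX fl/fl, against 16.7, 2.43, 8.31 and 5.73 CPM in vehicle CKO and 10.1, 27.0, 3.71 and 1.33 CPM in vehicle fl/fl. No PTX library reached the lowest vehicle library, though PTX fl/fl 3 and vehicle fl/fl 4 both round to 1.33 CPM. The log2 fold change was -5.09 ± 1.33 (edgeR adjusted p = 0.016). Cxcl12 and Cxcr1 were the 2 members whose 8 PTX libraries lay wholly below the 8 vehicle libraries, which 0.965% of all genes did. Xcr1, the XCL1 receptor of cross-presenting dendritic cells, had 16 counts in PTX CKO and 0 in PTX fl/fl, against 127 in vehicle CKO and 319 in vehicle fl/fl. It was 8.70-fold lower in CKO (95% counting interval 5.16 to 15.7) and at least 109-fold lower in fl/fl, where the bound sets the empty group at 3 counts in total. Both figures pool the counts of a group and leave out the spread between libraries. With all groups fitted, edgeR did not call Xcr1 in either label alone. The call over both labels (edgeR adjusted p = 0.0226) was lost without PTX CKO 2 (0.0536), and without the later vehicle date the log2 fold change was -2.42 (edgeR adjusted p = 1.00). Its vehicle counts came from 6 libraries, since 2 of the vehicle CKO libraries, replicates 1 and 2, had none.

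Within single genotype labels the number of calls differed between tools. In fl/fl, edgeR called 1 of 37 lower (Cxcl12), beside 1.76% of all genes called lower. DESeq2 called 8 members and limma-voom 23, beside 1517 and 5283 of all genes. PTX libraries lay wholly below the vehicle ones for 6 members (Ccl11, Ccr2, Cxcl12, Cxcr1, Cxcr7 and Xcr1), beside 7.8% of all genes. In CKO, edgeR called 0 of 37, DESeq2 3 and limma-voom 12, beside 366, 1341 and 2686 of all genes. There 6 members had an unadjusted p under 0.05 in edgeR, as did 19.7% of all genes. The CKO groups did not overlap for Ccl12, Cxcl12 and Cxcr1, 3 of 37 members beside 4.54% of all genes. Leaving out PTX CKO 3 raised the edgeR count in CKO to 2, beside 549 of all genes. Leaving out PTX fl/fl 3 or vehicle fl/fl 3 raised the edgeR count in fl/fl to 2. Calls over all genes in fl/fl then fell to 540 or 449, from 704 with all libraries. The log2 fold change was below 0 for 33 of 37 members in each label, beside 50.2% of all genes in fl/fl and 49.4% in CKO. Both medians, -1.82 in fl/fl and -1.75 in CKO, stand beside medians of all genes of -0.0074 in fl/fl and 0.02 in CKO. Simulated 4-fold changes in these libraries were recovered for 22% of genes in fl/fl, 14% in CKO and 42% over both labels. The changed genes were drawn from all tested genes above a minimum mean level, not from the members, and no date difference was simulated. Recovery of sparse or widely spread members was not measured.

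**Figure D3:**
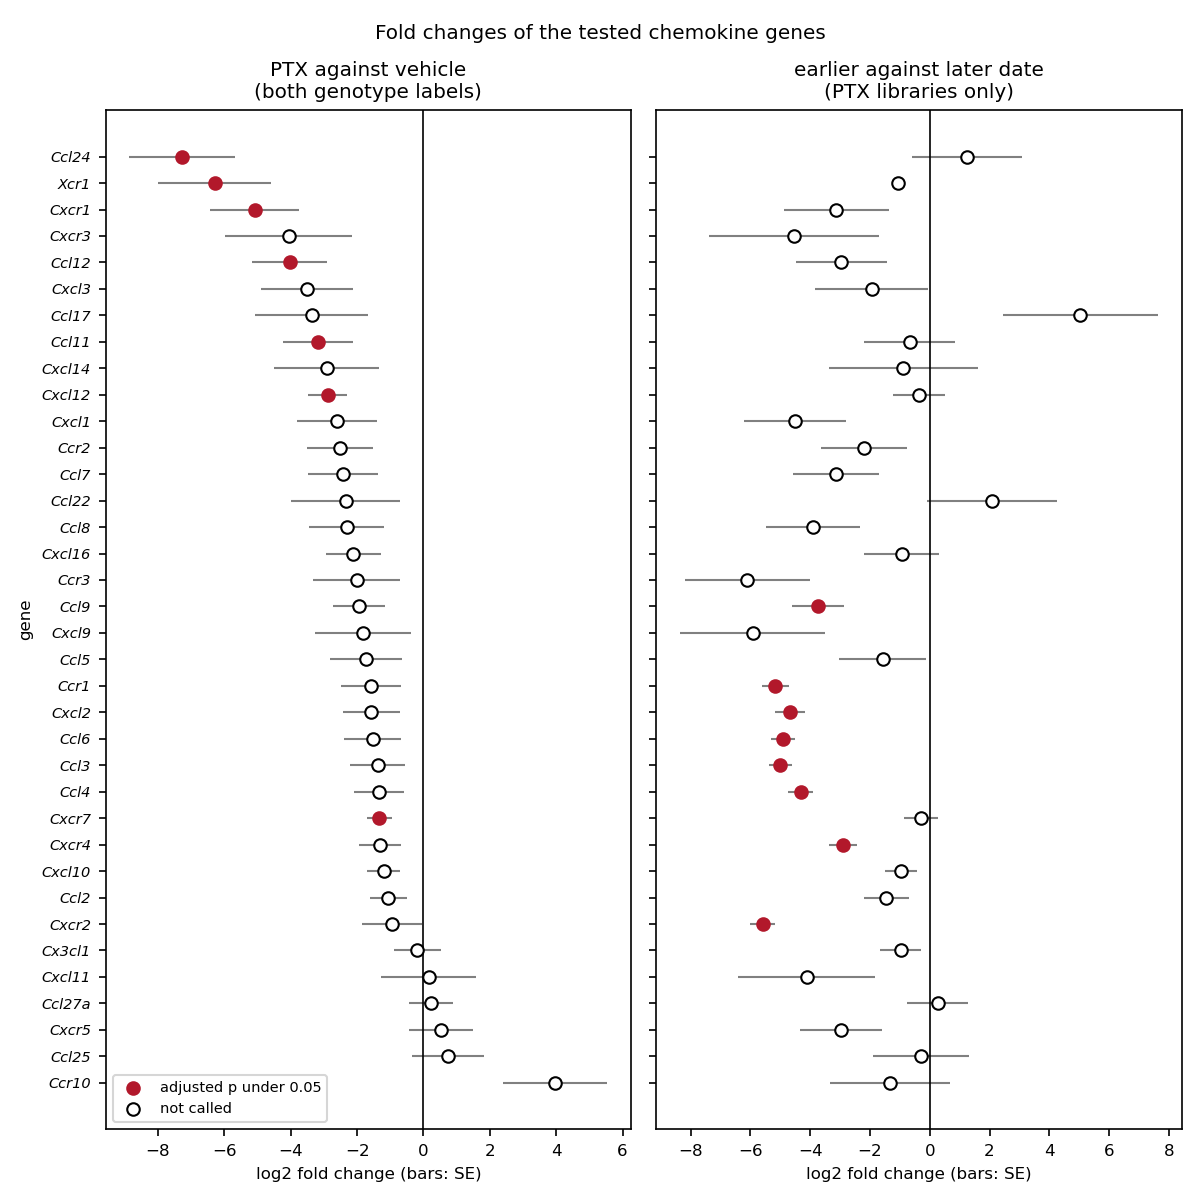
Log2 fold changes of 36 tested members, ordered by the comparison of PTX with vehicle on the left, beside the earlier against the later PTX date on the right, with bars of 1 SE and filled points for an edgeR adjusted p under 0.05. The 7 filled points on the left and the 8 on the right share no gene. The fit on the left has no date term, so a split by PTX date widens the spread and makes a call there less likely. The lack of overlap therefore does not show that the PTX calls are separate from the date. Xcr1 has no bar on the right, where a date with counts near 0 gave no usable SE.

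The abundant myeloid genes did not pass between PTX and vehicle in edgeR's fit by group with all libraries. They split the PTX libraries by title date. Ccl6, Ccl3, Ccl4, Cxcl2, Ccr1 and Cxcr2 held 10.0 to 62.4% of all member counts on the earlier PTX date, 81.1 to 87.4% on the later PTX date and 56.0 to 87.5% under vehicle. Summed, they reached 12.7 to 150 CPM in the 4 earlier and 1403 to 1692 CPM in the 4 later PTX libraries, against 1090 to 3750 CPM in the 8 vehicle libraries. The later PTX libraries thus lay inside the vehicle range, and the earlier ones below it. The date comparison and this set of genes were both chosen after the data had been seen.

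Ccl6, a CCR1 ligand of mouse myeloid cells, had 2.26, 10.4, 465 and 474 CPM in PTX CKO and 27.3, 43.2, 440 and 434 CPM in PTX fl/fl, against 347, 621, 1025 and 979 CPM in vehicle CKO and 1018, 842, 316 and 363 CPM in vehicle fl/fl. In both labels replicates 1 and 2, of the earlier date, were the low ones. Cxcr2, the neutrophil receptor for Cxcl1, Cxcl2 and Cxcl3 products, had 0.591, 3.61, 367 and 263 CPM in PTX CKO and 17.7, 21.4, 336 and 271 CPM in PTX fl/fl, against 200, 175, 316 and 493 CPM in vehicle CKO and 498, 386, 181 and 220 CPM in vehicle fl/fl. Ccr1, the receptor of CCL3 on neutrophils and monocytes, had 0.985, 4.65, 344 and 264 CPM in PTX CKO and 19.5, 33.1, 302 and 325 CPM in PTX fl/fl, against 193, 256, 805 and 988 CPM in vehicle CKO and 559, 645, 316 and 138 CPM in vehicle fl/fl. The same libraries were low for the 3 genes. Cxcl2, a neutrophil attractant made by myeloid cells themselves, had 0.985, 5.88, 167 and 182 CPM in PTX CKO and 9.88, 19.5, 167 and 211 CPM in PTX fl/fl, against 124, 249, 420 and 698 CPM in vehicle CKO and 289, 356, 80.2 and 132 CPM in vehicle fl/fl. Ccl3 ranged from 1.48 to 20.0 CPM on the earlier and 136 to 216 CPM on the later PTX date, and Ccl4 from 1.803 to 12.6 CPM and 84.7 to 166 CPM.

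**Figure D4:**
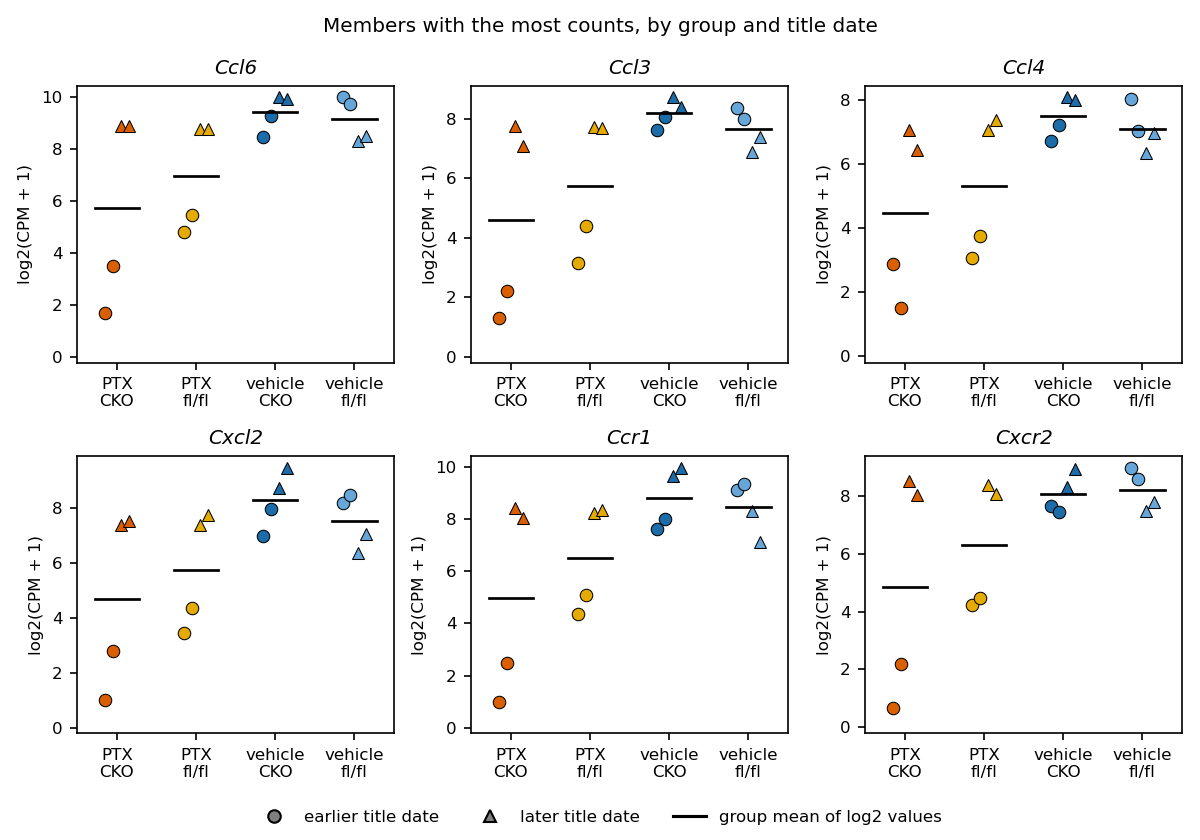
Each panel shows 1 of the 6 abundant myeloid members in 16 libraries as log2(CPM + 1), by group, with circles for the earlier and triangles for the later title date and a bar at the mean of the log2 values. In all 6 panels the PTX circles lie below the PTX triangles, and the triangles overlap the vehicle libraries.

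Between the earlier and the later PTX date 8 of 37 members were called, all lower on the earlier date, beside 8.93% of all genes called and 7.13% called lower. They were Cxcr2 with a log2 fold change of -5.59 ± 0.43, Ccr1 with -5.16 ± 0.44, Ccl3 with -5.00 ± 0.39, Ccl6 with -4.92 ± 0.40, Cxcl2 with -4.67 ± 0.49 and Ccl4 with -4.32 ± 0.43, with edgeR adjusted p-values of 1.9e-06 for Cxcr2 to 2.9e-05 for Cxcl2. Ccl9, another CCR1 ligand, followed with -3.73 ± 0.87 (edgeR adjusted p = 0.0156) and Cxcr4 with -2.91 ± 0.46 (edgeR adjusted p = 0.0009). The Ccl9 call was lost without PTX CKO 2, PTX CKO 3 or PTX fl/fl 1 (edgeR adjusted p = 0.0655, 0.0751 and 0.101). Between the 2 vehicle dates edgeR called 0 of 37 members beside 0.162% of all genes, and 1 member had an unadjusted p under 0.05, as did 8.41% of all genes. Over both dates, PTX against vehicle gave -1.54 ± 0.85 for Ccl6, -1.38 ± 0.83 for Ccl3, -1.34 ± 0.76 for Ccl4, -1.57 ± 0.85 for Cxcl2, -1.58 ± 0.91 for Ccr1 and -0.95 ± 0.90 for Cxcr2 on the log2 scale. None of these passed in edgeR's fit by group with all libraries. Of 11 alternative settings, Ccl4 and Cxcl2 passed in 3, and Ccl6, Ccl3, Ccr1 and Cxcr2 in 2. Ccl9 gave -1.94 ± 0.78 there and did not pass (edgeR adjusted p = 0.0992).

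Markers of neutrophils moved with these 6 genes, a set picked from the values of these same libraries. The 16 neutrophil markers took 0.0322 to 1.07% of counts on the earlier and 5.64 to 12.2% on the later PTX date, against 7.72 to 19.4% under vehicle, and all 16 were called lower on the earlier date while 0 of 16 were called between PTX and vehicle. For every 1000 neutrophil marker counts the 6 genes had 13.9 to 45.8 counts under PTX and 12.8 to 16.0 counts under vehicle. The highest ratios, 45.8 and 32.0, came from PTX CKO 1 and 2, which held only 129 and 316 counts of the 6 genes, and PTX fl/fl 4 gave 30.5. Macrophage markers took 0.0100 to 0.751% of counts under PTX and 0.628 to 1.42% under vehicle, with 9 of 17 called lower on the earlier date and 7 of 17 lower under PTX. None of the neutrophil or macrophage markers was at 0 in all PTX or all vehicle libraries. The part of these cells in the date and PTX differences was not tested.

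**Figure D5:**
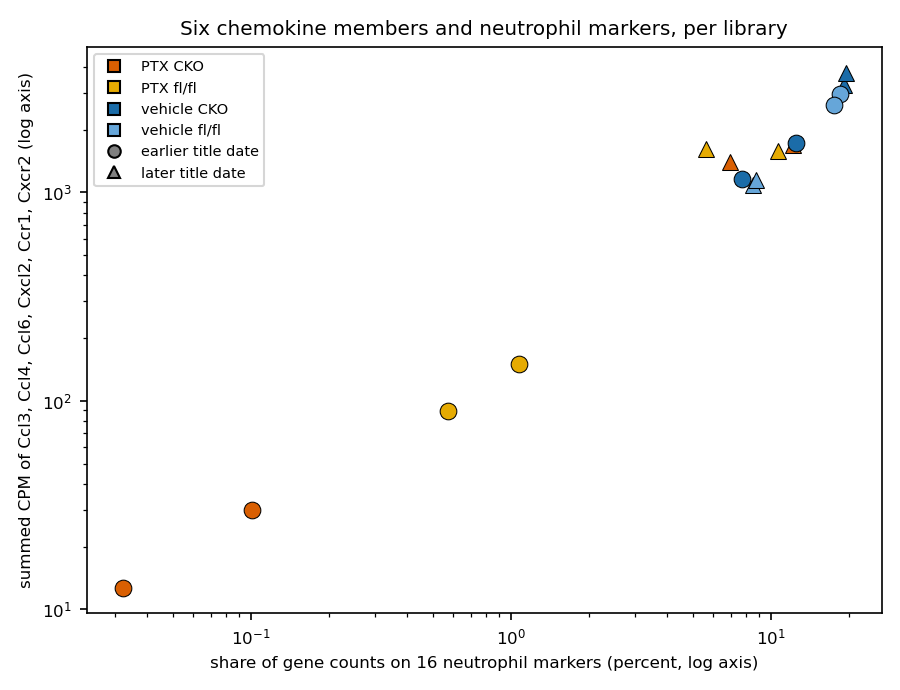
Each point is a library, with the share of counts on 16 neutrophil markers on a log axis against the summed CPM of the 6 members on a log axis, coloured by group and shaped by title date. The 4 circles of PTX lie at 0.0322 to 1.07% and 12.7 to 150 CPM, and all other libraries lie at or above 5.64% and 1090 CPM.

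Other myeloid receptors were sparse. Ccr2, the CCL2 receptor of inflammatory monocytes, had 5.51, 0, 11.6 and 28.5 CPM in PTX CKO and 1.33, 0.0879, 4.19 and 0 CPM in PTX fl/fl, against 64.5, 9.63, 13.3 and 18.0 CPM in vehicle CKO and 11.7, 43.8, 8.65 and 14.97 CPM in vehicle fl/fl. The fl/fl groups did not overlap, but neither the fl/fl difference (-3.81 ± 1.504, edgeR adjusted p = 0.166) nor that over both labels (-2.51 ± 1.00, edgeR adjusted p = 0.0954) passed. Ccr7, which guides dendritic cells and T cells to lymph nodes, was too sparse to test, with 3 counts in PTX fl/fl against 414 in vehicle fl/fl, 368 of them in 1 library at 43.1 CPM.

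The interferon-induced CXCR3 ligands did not pass in any comparison by edgeR with all libraries. Cxcl10, the one of them with counts in every library, had 23.5, 25.5, 13.8 and 14.2 CPM in PTX CKO and 5.73, 17.7, 37.8 and 117 CPM in PTX fl/fl, against 16.9, 60.5, 107 and 49.8 CPM in vehicle CKO and 140, 67.7, 62.2 and 39.6 CPM in vehicle fl/fl. Its log2 fold change over both labels was -1.20 ± 0.50 (edgeR adjusted p = 0.112). It passed without PTX fl/fl 4 (-1.76, edgeR adjusted p = 0.015), the PTX library with the highest value, and by limma-voom (-1.78, adjusted p = 0.0023). On the earlier PTX date, where the 6 myeloid genes were low, Cxcl10 had 5.73 to 25.5 CPM.

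Some ligands had counts in all 16 libraries and are given because of that, a choice made after their values were seen. Cx3cl1, the membrane-bound ligand of neurons, had 13.1, 10.5, 11.2 and 18.5 CPM in PTX CKO and 8.06, 6.77, 11.9 and 33.6 CPM in PTX fl/fl, against 0.673, 0.221, 6.90 and 27.3 CPM in vehicle CKO and 35.2, 17.9, 44.2 and 21.5 CPM in vehicle fl/fl. The 2 lowest libraries were both vehicle CKO of the earlier vehicle date. Cxcl16 had 13.0, 1.23, 12.8 and 0.955 CPM in PTX CKO and 1.16, 3.78, 18.8 and 0.102 CPM in PTX fl/fl. Under vehicle it had 20.4, 22.1, 8.18 and 14.8 CPM in CKO and 35.9, 65.7, 5.19 and 86.1 CPM in fl/fl. With all libraries edgeR did not call it between PTX and vehicle. Ccl27a, a ligand of the skin-homing receptor CCR10, had 2.63 to 6.01 CPM in PTX CKO and 5.18 to 5.98 CPM in PTX fl/fl, against 3.75 to 6.20 CPM in vehicle CKO and 0.703 to 5.41 CPM in vehicle fl/fl. Ccl27a overlaps exons of Il11ra1 on the other strand, as do Ccl25 with Elavl1, Cxcl16 with Zmynd15, Cxcr5 with Bcl9l, Cxcl11 with Gm2673, Ccr9 with Slc6a20a and Xcl1 with Gm20743. Whether strand was used in counting is not given in the sources used here, so reads of such pairs cannot be told apart. Cxcl17, Ccr9 and Cxcl5 were counted only under PTX, with 0 under vehicle for each. Cxcl17 had 106 counts in PTX CKO 4 and 3 in PTX fl/fl, and Ccr9 had 34 in PTX CKO 4. Cxcl5 had 1 count in PTX CKO and 8 in PTX fl/fl. Ccl20 and Ccr1l1 were counted only under vehicle, with 75 and 71 counts, all in vehicle fl/fl 1.

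Between genotype labels no member was called. In PTX libraries, CKO against fl/fl gave 0 calls among 37 members and 0% of all genes in edgeR, with 1 member (Xcr1) and 1.87% of all genes at an unadjusted p under 0.05, and DESeq2 also called 0 members. In vehicle libraries edgeR called 0 members and 0.0211% of all genes, with 0 members and 4.61% of all genes at an unadjusted p under 0.05, and DESeq2 called 0 members. The interaction of genotype label and treatment gave 0 members and 0.00704% of all genes in edgeR, 0 members in DESeq2, and 1 member (Xcr1, beside 3.35% of all genes) at an unadjusted p under 0.05. For Cxcl12 the log2 difference of CKO from fl/fl was 1.43 ± 0.80 under PTX and -0.30 ± 0.78 under vehicle (edgeR adjusted p = 1 for both). On single dates, with 2 libraries against 2 and no test, the mean of Cxcl12 was 9.02 CPM in CKO and 4.41 CPM in fl/fl on the earlier PTX date, and 14.7 and 4.39 CPM on the later one. With a spread this wide, absence of a call does not show that the labels are alike: simulated 2-fold changes between PTX and vehicle were recovered for 8% of genes even over all 16 libraries.

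Tested members varied more within groups than all tested genes, in a comparison not matched for expression level. In PTX groups that spread includes the difference between title dates. Their median biological coefficient of variation in edgeR was 1.29, against 0.765 over all tested genes. Among tested members there were 118 cases of a gene and group with at least 50 counts in some library, and in 29 of them (24.6%) another library of the same group had 0 counts. Over all tested genes the share was 13.2%.

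Genes that act around the chemokines but are no members were counted from lists, to be read beside 16.7% of all genes called under PTX over both labels and 6.19% called lower. In a list of atypical receptors and CX3CR1, 1 of 3 tested was lower, the fractalkine receptor gene Cx3cr1 of macrophages (-3.38 ± 1.07, edgeR adjusted p = 0.0422). CX3CR1 is a signalling receptor, not an atypical one. Its mean was 13.5 ± 18.4 CPM in PTX CKO and 5.66 ± 8.86 CPM in PTX fl/fl, against 93.0 ± 106 CPM in vehicle CKO and 88.1 ± 62.1 CPM in vehicle fl/fl (SD, n = 4 libraries each). Of platelet ligands and chemokine-like genes, 3 of 4 were lower: the platelet factor gene Pf4 (-3.63 ± 1.14), Cmtm3 (-1.84 ± 0.43) and Cmtm5 (-1.51 ± 0.27). Of 9 proteases that cut or shed chemokines 3 were lower and 1 higher. The sheddases of CX3CL1 and CXCL16, Adam10 (-1.08 ± 0.20) and Adam17 (-1.48 ± 0.35), and the macrophage protease gene Ctss (-3.04 ± 0.79) fell, while Ctsb (0.77 ± 0.25) rose.

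Of 44 genes of receptor signalling 5 were higher and 7 lower under PTX over both labels. The 4 with the smallest adjusted p were all higher: the phospholipase gene Plcb3 (2.18 ± 0.38), the G protein subunit gene Gnb1 (1.08 ± 0.19), the kinase gene Prkcd (1.07 ± 0.23) and the arrestin gene Arrb1 (1.16 ± 0.26). Many of these genes serve receptors of every kind, and 12 of 12 nociceptor and 13 of 14 sensory neuron markers were higher under PTX in the same libraries. Their part in it was not tested. Between the PTX dates, 4 of the 44 were higher and 19 lower on the earlier date, beside 8.93% of all genes called and 7.13% called lower. Of 11 tested genes of the lymphotoxin and alternative NF-kB pathway 2 were lower under PTX, Ltbr (-1.83 ± 0.37) and Relb (-1.51 ± 0.45), and 5 were lower on the earlier than on the later PTX date. No gene of these 5 lists was called between CKO and fl/fl in either treatment.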

How the data were processed

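Per the labels' protocols, RNA of sorted cells (500 ng) was made into stranded libraries and sequenced as 50-base single-end reads. The deposited files hold whole-number read counts per gene, made by the authors with bcl2fastq, TopHat2 and HTSeq on mm9, per the submitters' processing notes. The 5 HTSeq summary lines per file, which held 56.5 to 67.1% of all counts in a library, were left out. Counts were tested with edgeR 4.0.16 in R 4.3.3 using TMM scaling, filterByExpr (14200 genes kept), 1 coefficient per group, 12 residual degrees of freedom, robust quasi-likelihood F tests and Benjamini-Hochberg adjustment over all genes at 0.05. CPM are counts over TMM-scaled library size, and SEs were derived from the fold change and F. Depth was about 7906500 to 11668000 counts per library, which limits precision to 0.0824 to 0.128 CPM per count. Intervals cover counting error only. The 6 comparisons were PTX in each genotype label, CKO in each treatment, their interaction and PTX over both labels. The title-date contrasts and the set of 6 abundant myeloid genes were added after the data were seen. Alternatives were DESeq2 1.42.0, limma 3.58.1 with voom, other scalings and filters, left-out libraries and dates, and a replicate block. Same-numbered PTX CKO and PTX fl/fl libraries deviated together (r of 0.22 to 0.40 in 4 pairs). They also share a title date, so pairing by number cannot be told apart from the date. The test was checked on simulated counts. Members and lists were chosen with earlier results of these data known. Named members were those called, the 10 ligands and 10 receptors with the highest mean CPM, and those at 0. The counts include 1 member whose values are not reported here and which the plots omit. Lengths and promoters came from GRCm38 annotation, matched by symbol.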

Additional observations from a re-analysis of the deposited data

Results flagged for a closer look

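In 12 of 84 groups of 4 libraries (21 named members in 4 groups), 1 library stood apart from the others by a gap above Dixon's 95% limit for a gap over the group's range. Chance gives about 1 in 20 for normally distributed values, a rate that does not apply to sparse counts. In 6 of the 12 the other libraries of the group were at 0, so that any count passes the limit. No cause was tested.

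Under PTX, fl/fl replicate 3 had 24.6 CPM of Ccl12 (next 1.67 CPM), fl/fl replicate 2 had 0.264 CPM of Ccl24 (next 0) and 0.264 CPM of Ccr7 (next 0). PTX CKO replicate 4 had 77.2 CPM of Ccl2 (next 14.6 CPM). PTX CKO replicate 3 stood apart for 4 genes, with 45.9 CPM of Ccl9 (next 4.33 CPM), 6.19 CPM of Ccr3 (next 0), 0.928 CPM of Ccr7 (next 0) and 0.619 CPM of Cxcr1 (next 0). It is also the PTX library with the largest share of neutrophil marker counts, 12.2%.

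Under vehicle, CKO replicate 1 had 41.9 CPM of Ccl24 (next 5.75 CPM), 64.5 CPM of Ccr2 (next 18.0 CPM) and 14.9 CPM of Ccr7 (next 0). Vehicle fl/fl replicate 2 had 43.1 CPM of Ccr7 (next 3.24 CPM).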

How the results depend on the processing

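For PTX against vehicle over both labels, 7 members were called, against 12 by DESeq2, 21 by limma-voom, 9 with a replicate block (5 shared with the 7), 0 without the earlier PTX date, 23 without the later PTX date, 2 without the earlier and 4 without the later vehicle date, and 4 (without PTX CKO 2) to 10 (without PTX fl/fl 3) with 1 library left out. In fl/fl, 1 was called, against 8 by DESeq2, 23 by limma-voom, 0 with a replicate block, 0 without the earlier and 11 without the later PTX date, 0 without either vehicle date, and 0 to 2 with 1 library left out. In CKO, 0 were called, against 3 by DESeq2, 12 by limma-voom, 12 without the later PTX date, and 0 to 2 with 1 library left out. Between PTX dates, 8 were called and 7 to 8 with 1 library left out. Of single members, PTX in CKO turned round for Ccl2 (0.32) and Cxcr2 (0.070) without the earlier PTX date, and Cxcr4 (0.32) and Xcr1 (5.09) without the later vehicle date. For Xcr1 both vehicle CKO libraries then left are at 0, so its fitted value depends on the prior count and shows no size. Apart from having fewer samples, the cause was not tested.

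Over all genes, PTX in fl/fl gave 704 calls, against 1517 by DESeq2, 5283 by limma-voom, 361 with a replicate block, 4 without the earlier PTX date, 1923 without the later PTX date and 47 without the earlier vehicle date. PTX in CKO gave 366, against 1341 by DESeq2, 2686 by limma-voom, 159 with only its groups fitted, 126 with a replicate block, 0 without the earlier and 2077 without the later PTX date. PTX over both labels gave 2378, against 3500 by DESeq2 and 6461 by limma-voom. It gave 224 without the earlier PTX date, 4244 without the later PTX date and 895 without the earlier vehicle date. CKO in PTX gave 0, against 10 by DESeq2 and 14 without the later PTX date. CKO in vehicle gave 3, against 83 by DESeq2, 21 without the later vehicle date and 0 by limma-voom or with only its groups fitted. The interaction gave 1, against 50 by DESeq2, 9 without the later vehicle date and 0 by limma-voom. The vehicle dates gave 23, against 56 with no filter and 37 with upper-quartile scaling. With 1 library left out the ranges were 177 to 845 for PTX in fl/fl, 30 to 549 for PTX in CKO, 1544 to 2661 over both labels, 765 to 1474 between PTX dates, 1 to 15 for CKO in vehicle and 0 to 4 for the interaction. Limma-voom moved the median log2 fold change of all genes by 0.17 to 0.19 in the PTX comparisons and by -0.14 for CKO in PTX.

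Same-numbered PTX CKO and PTX fl/fl libraries share a title date, so their joint deviations do not show that the numbers pair samples. A replicate block gave 0 members in that comparison, as before. In PTX against vehicle, same-numbered libraries share only a number: deviations correlated at -0.18 to -0.14 in fl/fl and -0.04 to 0.08 in CKO. At 1 count per 0.0824 to 0.128 CPM, members with few counts limit the sparse calls.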
